A study of Mus musculus with 4 samples.

Results

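The 9 genes described here code for the IL-2 receptor (Il2ra, Il2rb and Il2rg), the transcription factors STAT5A and STAT5B (Stat5a and Stat5b) and 4 feedback inhibitors that STAT5 is known to switch on (Cish, Socs1, Socs2 and Socs3). They were taken by symbol from the 31053 genes of a scRNA-Seq data set of cultured mouse splenic B cells, and all 9 had at least 1 UMI in each library. A UMI, or unique molecular identifier, stands for 1 captured mRNA molecule. The labels list 4 samples of WT B cells. Bregs-CpG (2 samples) were kept in culture with CpG B ODN 1668, a ligand of the innate receptor TLR9, for 3 days. Bregs-TLR (2 samples) were Bregs-CpG that also received LPS, PMA and ionomycin for the last 5 hours, so CpG was common to all 4 samples. Age and sex of the mice, and whether replicates came from separate cultures, are not given in the labels used here. The paper names B6 mice as the source of the splenic B cells, and gives an age range only for the mice of the whole study.

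The cell barcodes number 4 libraries from 5 to 8, and nothing in the labels or files ties a library number to a sample. Values are therefore given per library, and Bregs-TLR and Bregs-CpG could not be compared. Of 19920 barcodes, 18534 were kept for having 1000 or more genes detected and a mitochondrial share of UMIs below 10%, which left 4196, 4714, 5621 and 4003 cells in libraries 5, 6, 7 and 8. These cells held 44842982 to 63638158 UMIs per library, and the median per cell was 8752, 8785, 10355 and 10077. Among all 19920 barcodes, before these limits, a barcode sequence occurred in 2 libraries in 29 cases (58 barcodes).

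IL-2 binds a receptor of 3 chains. The α chain, also known as CD25 and coded by Il2ra, raises affinity for the cytokine, whereas the β chain (Il2rb) and the common γ chain (Il2rg) carry the signal to the kinases JAK1 and JAK3. These phosphorylate STAT5, which enters the nucleus and activates genes such as Il2ra itself and Cish. CISH and the SOCS proteins then dampen the receptor or its kinases, so their mRNAs are often read as a trace of recent cytokine signaling. CD25 is best known from activated and regulatory T cells, but activated B cells carry it too.

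All 5 B cell markers examined (Cd79a, Cd79b, Ms4a1, Pax5 and Cd22) were present, and their summed level, as UMIs per 1000000 UMIs of the library (CPM), was 7043 and 7306 in libraries 5 and 6 and 1506 and 1498 in libraries 7 and 8. Ms4a1 differed most, at 1510 CPM in library 6 and 32.0 in library 7 (47.3-fold). Cd79b differed by 7.58-fold between the same libraries. Cd22, Pax5 and Cd79a were highest in library 6 and lowest in library 8, by 2.44-fold, 3.03-fold and 3.13-fold. Of 7 T cell markers, Cd3e, Cd4 and Cd8a had no UMI, and the list summed to 0.440 to 0.788 CPM. NK cell markers summed to 0 to 0.112 (3 of 4 without a UMI), myeloid markers to 0.416 to 2.46 and dendritic cell markers to 0.394 to 5.48 CPM. The plasma cell list summed to 1614, 1779, 390 and 339 CPM in libraries 5 to 8, a sum carried by Mzb1 (1548 CPM in library 6 and 154 in library 7), whereas Sdc1 was higher in library 7 (7.45 CPM) than in library 5 (0.201), and so was Xbp1 (112 and 84.7). The red cell list of 3 hemoglobin genes summed to 4.59, 4.30, 219 and 285 CPM in the 4 libraries. Hbb-bt carried this sum, with 27305 UMIs in all, against 62 for Hbb-bs and 0 for Hba-a1. The part of these differences in the values below was not tested.

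Il2ra, the gene of the CD25 chain (mouse chromosome 2, plus strand), had 414, 505, 7653 and 5031 UMIs in libraries 5, 6, 7 and 8. Its level was 9.23 CPM (95% interval 8.36 to 10.2) in library 5, 9.78 (8.95 to 10.7) in library 6, 120 (118 to 123) in library 7 and 110 (107 to 113) in library 8. Libraries 7 and 8 thus stood more than 10-fold above libraries 5 and 6, and library 7 was 13.0-fold above library 5 (log2 ratio 3.70, 3.56 to 3.85). Library 6 did not differ from library 5 beyond counting error (0.08, -0.11 to 0.27), and library 8 was slightly below library 7 (-0.13, -0.18 to -0.08). At least 1 Il2ra UMI was found in 8.56% of cells of library 5 and 9.23% of library 6, against 57.7% and 54.9% in libraries 7 and 8. The highest count in a single cell was 4 UMIs in libraries 5 and 6, and 18 and 24 in libraries 7 and 8. Intervals at 95% are exact throughout, from the Poisson distribution for levels, from the split of the summed counts for log2 ratios and by Clopper-Pearson for shares of cells. They cover counting error only and neither the spread between cultures nor that between cells.

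The stretch before the start of Il2ra is shown because this gene had the widest difference between libraries among the receptor chains. It is the RefSeq sequence (GRCm38.p6) of chr2:11642542-11642791, plus strand, which lies upstream of every GENCODE transcript of Il2ra. Capitals mark 2 overlapping matches to the NF-κB consensus. The first fits the consensus on both strands, and the second on the minus strand only.
Il2ra: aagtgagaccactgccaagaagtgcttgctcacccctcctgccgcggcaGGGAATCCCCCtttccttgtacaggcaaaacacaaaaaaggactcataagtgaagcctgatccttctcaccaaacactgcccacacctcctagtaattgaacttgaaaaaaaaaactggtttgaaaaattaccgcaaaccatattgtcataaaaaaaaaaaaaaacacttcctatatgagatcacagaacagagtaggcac
The NF-κB consensus was found on either strand in 4.51% of the 32851 RefSeq windows searched, each running from 250 bases before a gene start to 50 after it. Among the members, the consensus was also found once in 1 of the 2 windows of Stat5a. The STAT motif TTCNNNGAA, which reads the same on both strands, was not in the Il2ra window, which says only that these letters were absent from it.

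Il2rb, which codes for the β chain shared with the IL-15 receptor (chromosome 15, minus strand), was close to absent. Its counts were 9, 15, 14 and 11 UMIs in libraries 5, 6, 7 and 8, and they came from 45 of the 18534 cells. The levels were 0.201 (0.0918 to 0.381), 0.290 (0.163 to 0.479), 0.220 (0.120 to 0.369) and 0.241 (0.120 to 0.431) CPM. All 4 intervals overlapped, so no order between the libraries could be read. For scale, 3 counts would correspond to 0.0471 to 0.0669 CPM in these libraries.

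Il2rg, the γ chain that IL-2 shares with IL-4, IL-7, IL-9, IL-15 and IL-21 (X chromosome, minus strand), was present throughout at 81.9 (79.3 to 84.6), 75.5 (73.1 to 77.9), 62.8 (60.8 to 64.8) and 51.4 (49.3 to 53.5) CPM in libraries 5 to 8. Library 5 was highest and library 8 lowest, by 1.60-fold, so that Il2rg, unlike Il2ra, was higher in libraries 5 and 6 than in libraries 7 and 8. Cells with an Il2rg UMI made up 52.9%, 51.2%, 47.3% and 40.2%. Of the cells with an Il2ra UMI, 230 of 359 (64.1%), 254 of 435 (58.4%), 1582 of 3242 (48.8%) and 949 of 2198 (43.2%) also had an Il2rg UMI. Depth was not made equal between cells for these counts. Il2ra and Il2rb were found together in 13 cells of the data set, and all 3 chains in 6 cells, of which 3 were in library 7 and 3 in library 8.

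**Figure D1:**
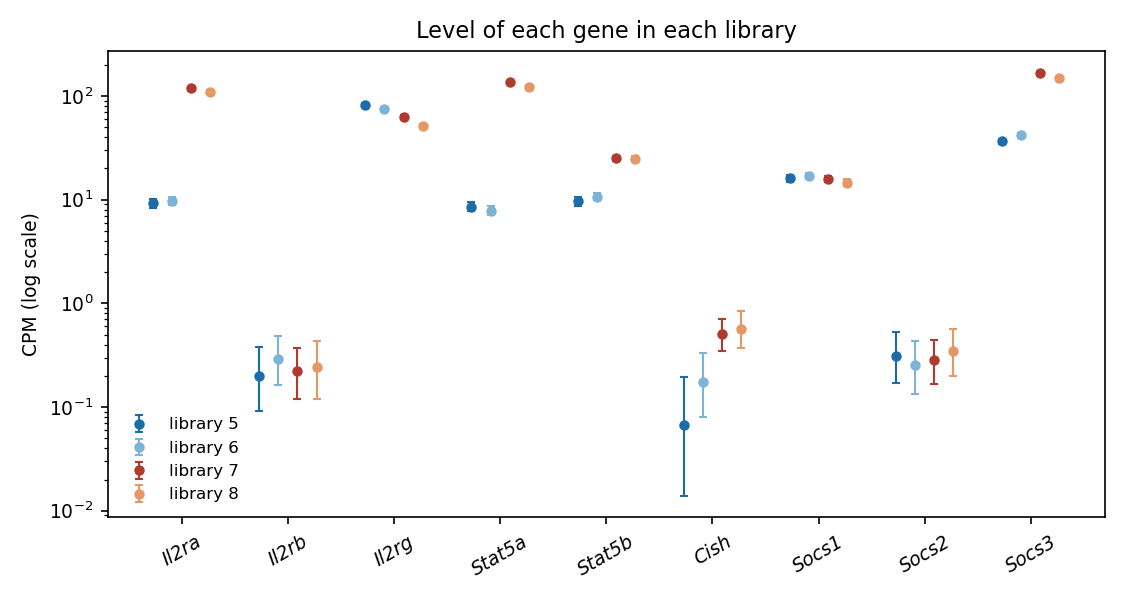
Level of each of the 9 genes in libraries 5 to 8, in CPM on a log axis, with exact Poisson 95% intervals as bars. Il2ra, Stat5a, Stat5b and Socs3 were higher in libraries 7 and 8 than in libraries 5 and 6, Il2rg was highest in library 5, Socs1 lay between 14.5 and 17.0 in all libraries, and Il2rb, Cish and Socs2 stayed below 1 CPM.

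Stat5a codes for a transcription factor first known from prolactin signaling, and lies on chromosome 11 beside its paralog Stat5b. Stat5a had 384, 405, 8670 and 5630 UMIs, or 8.56 (7.73 to 9.46), 7.84 (7.10 to 8.65), 136 (133 to 139) and 123 (120 to 127) CPM in libraries 5, 6, 7 and 8. This was the widest range of the 6 genes with enough UMIs for it: library 7 was 17.4-fold above library 6 (log2 ratio 4.12, 3.97 to 4.27). Libraries 5 and 6 had overlapping intervals. The share of cells with a Stat5a UMI was 8.46%, 8.02%, 69.8% and 66.1%. Stat5a overlaps Stat3 on the opposite strand in the GENCODE annotation. Stat3 differed by 1.40-fold between its highest and lowest library.

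Stat5b, the paralog, moved in the same direction and less. Its level was 9.63 (8.75 to 10.6), 10.7 (9.87 to 11.7), 24.9 (23.7 to 26.2) and 24.7 (23.3 to 26.2) CPM. Library 7 was 2.59-fold above library 5, and libraries 7 and 8 did not differ beyond counting error. Of all Stat5a and Stat5b UMIs, Stat5a made up 47.1% (43.6 to 50.6) in library 5, 42.2% (39.0 to 45.4) in library 6, 84.5% (83.8 to 85.2) in library 7 and 83.3% (82.4 to 84.2) in library 8. Stat5a was thus the minor of the paralogs in library 6 and the major one in libraries 7 and 8. The chemistry reads the 3′ ends of transcripts, so these counts do not scale with transcript length, but how well each 3′ end is captured is not known.

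Cish, a feedback inhibitor that is among the most direct STAT5 targets known, had very few UMIs. The counts were 3, 9, 32 and 26 in libraries 5 to 8, which gave 0.0669 (0.0138 to 0.196), 0.174 (0.0797 to 0.331), 0.503 (0.344 to 0.710) and 0.569 (0.372 to 0.834) CPM. The log2 ratio of library 8 to library 5 was 3.09 (1.38 to 5.46), and with 3 UMIs in library 5 its size is uncertain. Libraries 7 and 8 were also above library 6, by 1.53 (0.43 to 2.78) and 1.71 (0.57 to 2.99). Even in library 8, where the share was highest, 0.650% of cells had a Cish UMI, against 54.9% with an Il2ra UMI.

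The start of Cish (RefSeq, GRCm38.p6, chr9:107296654-107296683, plus strand) is shown because it holds 2 STAT motifs, in capitals, which begin 1 and 12 bases from the start when the first transcribed base counts as 1. In GENCODE it falls in the untranslated first exon of a Cish transcript, and antisense transcripts overlap the gene.
Cish: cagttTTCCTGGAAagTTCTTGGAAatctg
Windows with 2 or more matches to TTCNNNGAA made up 0.457% of all windows, and windows with any match 8.30%. Of the members, 7 had windows in the table (9 windows), and only the windows of Cish and Socs3 held the motif.

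Socs3, whose protein blocks JAK kinases at receptors such as that of IL-6 and which STAT3 and STAT5 both activate, was the feedback gene with the most UMIs. It had 1632, 2174, 10620 and 6845 UMIs, or 36.4 (34.6 to 38.2), 42.1 (40.4 to 43.9), 167 (164 to 170) and 150 (146 to 153) CPM. Library 7 was 4.59-fold above library 5 (log2 ratio 2.20, 2.12 to 2.27). Cells with a Socs3 UMI made up 25.3%, 28.8%, 66.2% and 62.0% of libraries 5, 6, 7 and 8.

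The Socs3 stretch (RefSeq, GRCm38.p6, chr11:117969467-117969566, minus strand, printed as the gene reads) has 1 STAT motif, in capitals, 154 bases before the start. GENCODE also has a longer Socs3 transcript, in an intron of which the stretch lies.
Socs3: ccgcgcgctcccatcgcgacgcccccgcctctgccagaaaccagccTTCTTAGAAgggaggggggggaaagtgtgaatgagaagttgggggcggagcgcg

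Socs1, which inhibits JAK kinases below interferon and γ chain receptors, did not follow the other genes. Its level was 16.1 (14.9 to 17.3), 17.0 (15.9 to 18.1), 15.9 (14.9 to 16.9) and 14.5 (13.4 to 15.7) CPM, a range of 1.17-fold. Between 13.9% and 15.7% of cells had a Socs1 UMI in each library. Socs2, best known for restraining growth hormone signals, had 14, 13, 18 and 16 UMIs, with levels between 0.252 and 0.350 CPM and intervals that all overlapped.

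Each pair of libraries was then compared over all genes with at least 50 UMIs in the pair, counting those that differed by at least 2-fold. Library 6 differed from library 5 in 0.198% of genes and in 0 of 6 members that had enough UMIs. Library 8 differed from library 7 in 0.584% of genes and in 0 of 7 members. For library 7 against 5 the share of genes was 31.2%, for 8 against 5 30.1%, for 7 against 6 31.1% and for 8 against 6 30.1%, and in each of these pairs the same 4 of 6 members (Il2ra, Stat5a, Stat5b and Socs3) differed while Il2rg and Socs1 did not. These pairs share libraries and are not independent of each other. The 4 of 6 thus stand beside a background in which about 3 in 10 genes differed, and no test was possible with libraries that cannot be assigned to groups. Il10, the gene of the cytokine that regulatory B cells are known for, was at 13.7, 11.1, 255 and 253 CPM in the same libraries.

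The same count was made for the rest of the pathway, on genes with at least 100 UMIs over all libraries. Of all such genes, 35.6% had a highest library at least 2-fold above the lowest, and the median log2 range was 0.74. It was 1.79 for the 6 members counted, 4 of which passed 2-fold. Ligands were nearly absent: none of the 7 genes reached the minimum. Il2 itself had 91 UMIs in all, at 0.580, 0.407, 0.377 and 0.438 CPM.

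Among 6 related receptors, 3 passed 2-fold. Il7r, the α chain for IL-7, was highest in library 6 at 26.9 CPM and lowest in library 7 at 5.26, Il9r had 1.05 CPM in library 6 and 0.0438 in library 8, and Crlf2, the receptor for TSLP, ran the other way, at 64.2 in library 5 and 147 in library 8. Il9r had 105 UMIs in all, and its level in library 8 lay below that of 3 counts. The size of its difference (log2 ratio 4.58, 2.66 to 7.66) is therefore uncertain. Il4ra, Il15ra and Il21r stayed within 2-fold. The median log2 range of the receptors was 1.05, against 1.44 for kinases, 0.59 for the other STATs, 0.70 for negative regulators and 1.24 for STAT5 targets. Of the 6 kinases, 4 passed. Jak1, the partner of the β chain, was 4.36-fold higher in library 7 (849 CPM) than in library 5 (195), and Jak2 3.07-fold, whereas Jak3, the partner of the γ chain, was 1.86-fold higher in library 6 than in library 8. Syk and Lck were highest in libraries 6 and 5. None of the 4 other STAT genes examined passed 2-fold. The closest was Stat2 (1.98-fold), and Stat4 had the narrowest range (1.05-fold).

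Of 13 other SOCS genes and negative regulators, 5 passed, of which Ptpn2, a phosphatase of JAK1 and JAK3, and Pias2 were highest in library 7, and Socs5, Pias1 and Ptpn6 (SHP-1) in library 5 or 6. Of 16 genes known as STAT5 targets in lymphocytes, 14 had enough UMIs and 9 passed. The 6 with their highest level in library 7 or 8 were Ccnd2 (5.14-fold), Ctla4 (5.56-fold), Myc (4.16-fold), Bcl2l1 (4.04-fold), Osm and Pim1. Prdm1, Tnfrsf18 and Mcl1 had theirs in library 6. Prdm1, the regulator of plasma cell fate, was at 13.5 CPM in library 6 and 1.25 in library 8. The list therefore held large differences in both directions, and Pim2 and Bcl2 differed by 1.06-fold and 1.26-fold.

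**Figure D2:**
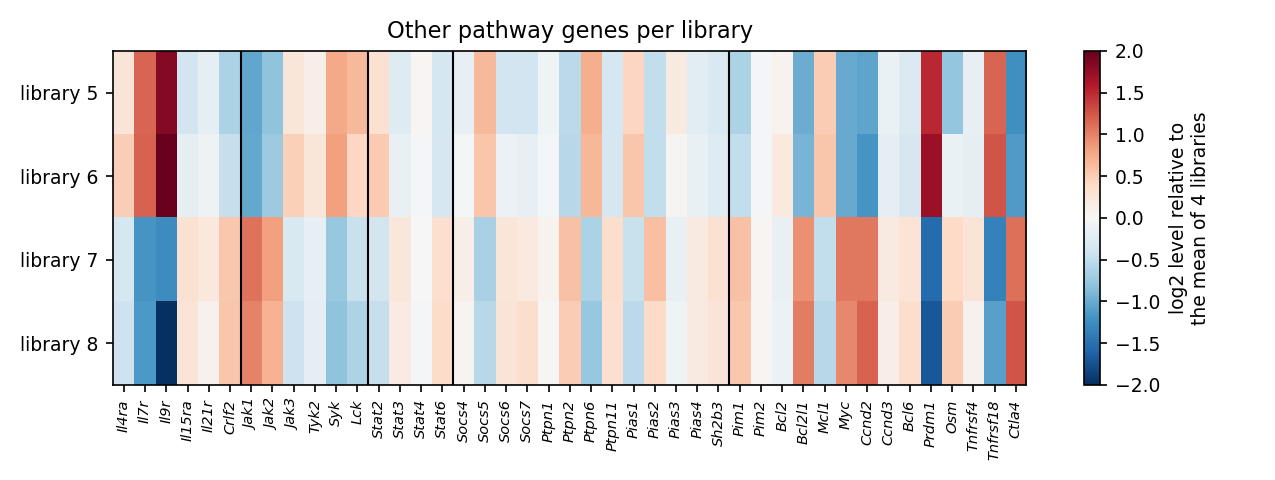
Level of each other pathway gene with at least 100 UMIs, per library, as the log2 difference from the mean of the 4 libraries (color, limited to 2 in each direction), with lines between receptors, kinases, STATs, negative regulators and STAT5 targets. Jak1, Myc, Ccnd2 and Ctla4 were high in libraries 7 and 8, and Il7r, Il9r, Prdm1 and Tnfrsf18 in libraries 5 and 6. The 4 STAT genes drawn differed by less than 2-fold, from 1.05-fold (Stat4) to 1.98-fold (Stat2).

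Whether cells with Il2ra carried the feedback genes was asked within each library, so that no difference between libraries entered. Since detection depends on depth, each cell was thinned at random to 5000 UMIs and the 158, 114, 233 and 157 cells below that depth were left out. An Il2ra UMI was then left in 183 of 4038 cells (4.53%) in library 5, 229 of 4600 (4.98%) in library 6, 2086 of 5388 (38.7%) in library 7 and 1396 of 3846 (36.3%) in library 8. Before thinning, the median depth of these Il2ra-positive cells and of the Il2ra-negative cells was 8515 and 8896, 8486 and 8890, 10586 and 10490, and 10237 and 10205 UMIs. Of the positive cells, 174, 211, 1361 and 911 had a single Il2ra UMI, and cells that express the gene below detection count as negative here.

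Socs3 was higher in Il2ra-positive cells of all 4 libraries, by a small amount. Its level in positive and negative cells was 56.8 and 38.0 CPM in library 5, 59.4 and 43.6 in library 6, 203 and 154 in library 7, and 177 and 139 in library 8. The log2 ratios were 0.58 (0.15 to 0.99), 0.45 (0.07 to 0.80), 0.40 (0.32 to 0.49) and 0.35 (0.24 to 0.46). In libraries 7 and 8 the interval stayed above 0 under each of the alternatives tried. In libraries 5 and 6, with 52 and 68 Socs3 UMIs in positive cells, it did not: without thinning the ratios were 0.20 (-0.02 to 0.40) and 0.12 (-0.06 to 0.30), and with another random thinning that of library 6 was 0.06.

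As shares of cells, Socs3 was found in 19.1% of positive and 14.9% of negative cells in library 5, 24.5% and 16.7% in library 6, 55.7% and 45.2% in library 7, and 50.4% and 41.8% in library 8. The intervals of the shares in library 5 overlapped (13.7 to 25.6 and 13.8 to 16.0). With the number of Il2ra UMIs in a cell (0, 1, 2, and 3 or more), the share in library 7 went from 45.2% through 52.5% and 60.8% to 63.1%. In library 8 it went from 41.8% through 48.6% and 55.3% to 50.9%, where the last 2 intervals overlapped. Seen from the other side, Il2ra was found in 43.8% of Socs3-positive and 33.8% of Socs3-negative cells of library 7, and in 40.8% and 32.7% in library 8. Socs3 in the Il2ra-negative cells of libraries 7 and 8 (154 and 139 CPM) was above that in the positive cells of libraries 5 and 6 (56.8 and 59.4 CPM), so the differences between these libraries were larger than those within them.

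**Figure D3:**
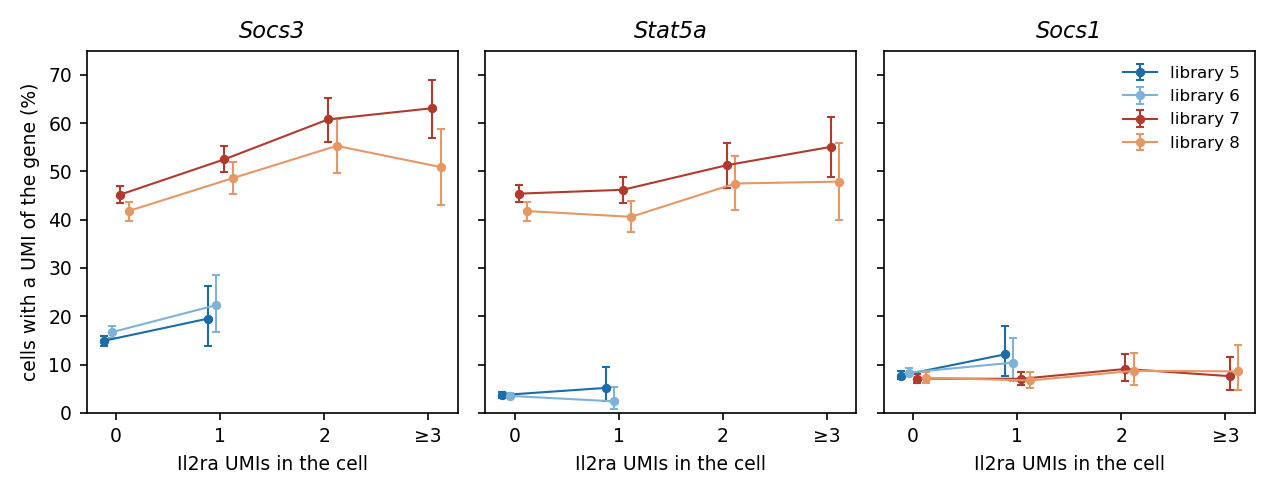
Share of cells with a UMI of Socs3, Stat5a and Socs1 against the number of Il2ra UMIs in the cell, in cells thinned to 5000 UMIs, per library, with Clopper-Pearson 95% intervals; groups of under 50 cells are not drawn. In library 7, the Socs3 share went from 45.2% to 63.1% and the Stat5a share from 45.4% to 55.1%, while the Socs1 share stayed between 7.05% and 9.09%.

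Among the other feedback genes, Socs1 had a higher ratio than Socs3 in library 5 and lower ratios in libraries 6, 7 and 8. Socs1 had log2 ratios of 0.95 (0.35 to 1.5), 0.39 (-0.23 to 0.95), 0.09 (-0.19 to 0.37) and 0.11 (-0.24 to 0.45) in libraries 5 to 8, so that 1 of 4 intervals lay above 0, that of library 5. The Socs1 interval of library 5, with 29 Socs1 UMIs in positive cells, stayed above 0 under each alternative computed for it. Without thinning the ratio was 0.48 (0.18 to 0.77), and with another thinning 0.91 (0.27 to 1.49). Cish could not be read at this depth. It had 0 UMIs in Il2ra-positive cells of libraries 5 and 6, 5 in library 7 and 4 in library 8, against 0, 5, 6 and 7 in the negative cells of the 4 libraries. Socs2 had 0 to 2 UMIs in positive cells of each library. For 0 of 183 cells, 3 counts would be a share of 1.64%, which limits the cells with a UMI and not those that express a gene.

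Stat5a was slightly higher with Il2ra where both were common, at 0.16 (0.06 to 0.26) in library 7 and 0.15 (0.03 to 0.27) in library 8. With another thinning both intervals reached 0. Among all genes tested, 15.3% and 21.4% had a ratio at or above that of Stat5a in these libraries. Stat3 was at 0.18 (0.03 to 0.32) and 0.25 (0.08 to 0.43) there, and Stat4 at 0.42 and -0.14. In libraries 5 and 6 Stat5a had 11 and 7 UMIs in positive cells and intervals that spanned 0. Stat5b had ratios of 0.71, 0.19, 0.12 and 0.30, of which the last had an interval above 0 (0.02 to 0.57). That interval reached 0 with another thinning (0.12, -0.15 to 0.39), and the ratio of library 5 was -0.32 at 3000 UMIs per cell. Il2rg had ratios of -0.02, -0.02, -0.15 and 0.10. That of library 7 was -0.05 with another thinning, with an interval that reached 0, and at 8000 UMIs per cell that of library 6 was 0.39 (0.13 to 0.64), so no direction can be read for Il2rg. Il2rb had 1 UMI in all Il2ra-positive thinned cells together.

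Cells with Il2ra, Stat5a and Socs3 at once made up 10.9% of library 7 and 8.01% of library 8, where the product of the 3 single shares was 8.89% and 6.88%. In libraries 5 and 6 there were 3 and 2 such cells. Il10 was at log2 ratios of 0.65 (-0.15 to 1.36), -0.25 (-1.40 to 0.71), 0.22 (0.16 to 0.29) and 0.19 (0.11 to 0.27) in libraries 5 to 8. The proliferation gene Mki67 went either way (0.38, -0.88, -0.40 and 0.38), as did the plasma cell gene Jchain, with 0 of its 728 UMIs in positive cells of library 5 and a ratio of 1.03 in library 8. The Jchain UMIs came from few cells. A Jchain UMI was found in 0.778% of negative cells of library 5, and in 1.22% of positive and 1.06% of negative cells of library 8. Without cells that had a UMI of 4 cell cycle genes, the Socs3 ratio was 0.29 (-0.15 to 0.70) in library 6, 0.31 (0.20 to 0.42) in library 7 and 0.39 (0.24 to 0.53) in library 8.

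**Figure D4:**
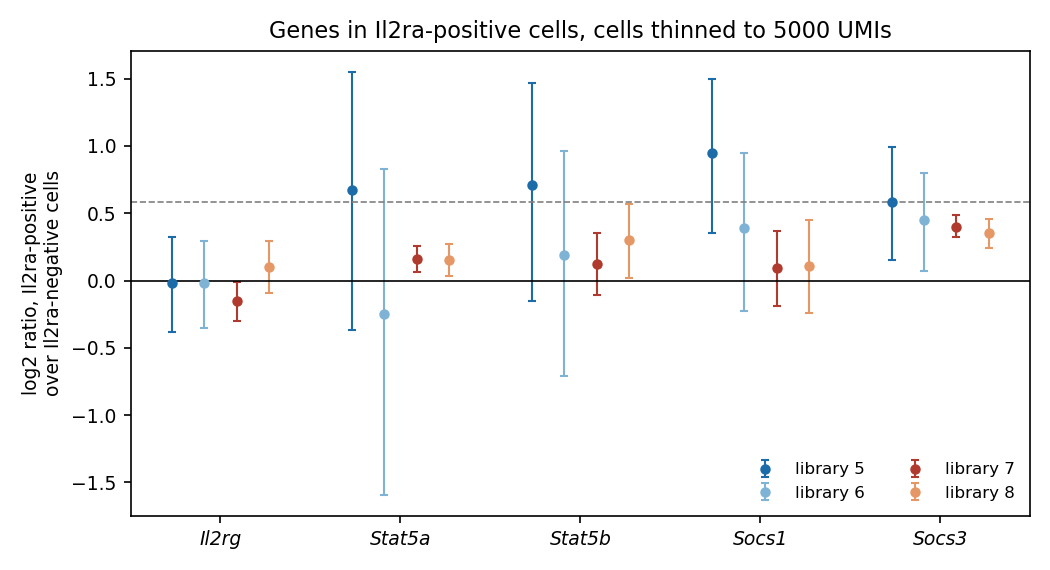
Log2 ratio of the level in Il2ra-positive over Il2ra-negative cells for the 5 members with at least 50 thinned UMIs, per library, with exact conditional 95% intervals; the dashed line marks 1.5-fold. In this thinning Socs3 is the gene whose 4 intervals lie above 0, with ratios from 0.35 to 0.58, and the Il2rg ratios lie between -0.15 and 0.10. With another random thinning the Socs3 interval of library 6 included 0 (-0.39 to 0.48).

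By a rule of at least 1.5-fold higher in positive cells, 3 of 5 members passed in library 5 (Stat5a, Stat5b and Socs1), where 7.41% of all 9241 genes tested did, and only Socs1 of these had an interval above 0. In libraries 6, 7 and 8 none of the 5 members passed, and the share of all genes was 5.99%, 0.892% and 1.41%. Socs3 lay just below the limit in library 5. An interval above 0 was found for 2, 1, 2 and 3 of the 5 members in libraries 5, 6, 7 and 8, and for 3.82%, 4.09%, 6.10% and 6.51% of all genes tested there. An interval below 0 was found for Il2rg in library 7 and for no other member tested, and for 2.13%, 2.78%, 5.91% and 5.55% of all genes. These shares cover every gene with at least 50 thinned UMIs, and intervals are narrower for genes with more UMIs. The members were not matched to genes of like UMI number, so their counts cannot be set directly against the shares.

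In the lists of related genes, Pim1, a kinase gene that STAT5 is known to induce, was higher in Il2ra-positive cells of all 4 libraries. Its log2 ratios were 0.52 (0.32 to 0.71), 0.44 (0.27 to 0.61), 0.25 (0.20 to 0.30) and 0.28 (0.22 to 0.35). Of all genes tested, 9.69%, 10.5%, 8.20% and 8.94% had a ratio at or above that of Pim1 in libraries 5 to 8. Pim1 was singled out after its values were seen. With another thinning, thinning to 8000 UMIs or none, its 4 intervals also lay above 0, and the ratios ranged from 0.21 to 0.60. Ptpn1, a phosphatase that acts on JAK2 and TYK2, also had 4 intervals above 0 (0.27, 0.19, 0.22 and 0.11), but that of library 5 reached 0 under each of these alternatives. Ctla4 was higher in libraries 7 and 8 (0.41, 0.17 to 0.65, and 0.49, 0.20 to 0.78). Ptpn6 was lower there (-0.37 and -0.26). Il7r was higher in libraries 5 and 6 (0.83, 0.34 to 1.28, and 0.80, 0.37 to 1.19), and its intervals in libraries 7 and 8 included 0. Among 6, 6, 6 and 5 kinases tested in libraries 5 to 8, 1, 0, 3 and 2 had intervals above 0. For 4 other STATs in each library the counts were 0, 0, 2 and 1, and for 4, 5, 5 and 5 related receptors 1, 2, 0 and 1. In these 3 lists 1 interval was below 0, that of a receptor in library 7. Of the 12, 12, 12 and 10 STAT5 targets tested, 1, 3, 5 and 4 had intervals above 0 and 2, 0, 0 and 0 below it, and the median ratio of the list was 0.14, 0.07, 0.04 and 0.16. The list was not split by whether STAT5 raises or lowers a gene, so these counts give no direction of STAT5 activity. Bcl6, for example, had ratios of 0.19, 0.73, -0.07 and 0.34, with intervals above 0 in libraries 6 and 8. Over all genes tested, 3.82%, 4.09%, 6.10% and 6.51% had intervals above 0 in libraries 5 to 8. Intervals below 0 made up 2.13%, 2.78%, 5.91% and 5.55%. A gene with more UMIs has a narrower interval, so the counts of the lists cannot be set directly against these shares.

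Of 8496 genes with enough thinned UMIs in every library, 866 (10.2%) were higher in Il2ra-positive cells of all 4, and 10 (0.118%) had all 4 intervals above 0. Socs3 was among these, but with another random thinning its interval in library 6 included 0 (-0.39 to 0.48). By ratio alone, 7.47%, 10.1%, 2.90% and 5.84% of genes tested were at or above Socs3 in libraries 5 to 8. When the 8496 genes were ranked by the lowest of their 4 ratios, Ccl4, Cmtr1, Gpkow, Tha1 and Socs3 came first. At the other end, Tmed6, Zfp869, Cacna1s, Rita1 and Zfp934 had the lowest values for the highest of their 4 ratios, though most of their intervals included 0. This order was not stable, since with another random thinning 0 of the 5 highest and 0 of the 5 lowest genes recurred and Socs3 was at rank 298. For the chemokine gene Ccl4, 208 of its 284 UMIs in positive cells of library 5 and 307 of 418 in library 6 came from 1 cell each. In libraries 7 and 8, where no positive cell held more than 158 UMIs, Ccl4 was found in 20.2% and 19.7% of positive cells and in 14.9% and 16.1% of negative cells.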

How the data were processed

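The authors deposited 1 matrix of UMI counts per gene and cell from Chromium Single Cell 3′ v3 libraries. Per the labels and the methods of the study, reads were demultiplexed with bcl2fastq, aligned to mm10 and counted with Cell Ranger (version 3.1.0), and Cell Ranger aggr evened out sequencing depth between libraries. The deposited counts were not otherwise normalized or imputed. The matrix has 35989 columns and 19920 barcodes. The barcodes were placed on the last columns, since mean expression over 400 columns on either side shifted at the starts of libraries 5, 7 and 8 (percentile 99.4, 100 and 91.4 of all columns, but 56.5 for library 6), and at most at percentile 86.3 had they been placed on the first. The other 16069 columns were not used here. If this placement were wrong, the library values would be too.

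UMIs of a gene were summed over the passing cells of a library and divided by all their UMIs. For Il2ra-positive cells, counts were thinned without replacement to 5000 UMIs per cell. Doublets were not called. Tests between conditions were not made. The functions were checked on simulated data. Python (version 3.11.15), SciPy (version 1.17.1) and, for TMM factors as an alternative, edgeR (version 4.0.16) were used. Genes named include the 9 members, genes of fixed marker and pathway lists, and the 5 genes at each end of the likeness to Il2ra. Within the pathway lists, genes were picked after their values were seen, and not only as the highest and lowest. The members and lists were chosen with earlier results of these data known. A gene of the B cell marker list and a gene of the STAT list are not reported here. Alternatives were other denominators, cell filters, thinning depths and seeds, a higher Il2ra limit, and leaving out cycling, Jchain, top-depth or Ccl4 cells or a library.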

Additional observations from a re-analysis of the deposited data

How the results depend on the processing

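Between libraries, the 6 members with enough UMIs were recomputed. With all libraries kept, no alternative changed the direction of a member or its side of 2-fold. With a library left out, the highest and lowest of the remaining libraries were compared. Direction could not change there, and the side of 2-fold did not. The ranges given next cover both kinds of alternative. The log2 ratio of the highest over the lowest library ranged from 3.51 to 3.71 for Il2ra, 3.95 to 4.15 for Stat5a, 1.18 to 1.39 for Stat5b, 1.99 to 2.20 for Socs3, 0.38 to 0.82 for Il2rg and 0.10 to 0.35 for Socs1. Within libraries, of 174 ratios recomputed between Il2ra-positive and Il2ra-negative cells, 129 kept their sign and whether their interval included 0, and 17 with an interval that included 0 changed sign. An interval beyond 0 was lost by 24 and gained by 3, and Il2rg in library 6 turned from -0.02 to 0.39 at 8000 UMIs, with an interval above 0. Of the 18 changes of sign, 11 were of Il2rg and 0 of Socs3. For Socs3 in library 5 the ratio was 0.23 at 3000 UMIs per cell, 0.20 without thinning and 0.36 in cells with no Ccl4 UMI, an alternative added after the data were seen. In library 6 it was 0.15 at 3000 UMIs, 0.12 at 8000 UMIs, 0.12 without thinning, 0.29 without cells with cell cycle UMIs, 0.33 without the 5% of cells with most UMIs and 0.06 with another seed. These intervals included 0. Thinned to 3000 UMIs, and without thinning, 2 libraries had a Socs3 interval above 0. The cause was not tested. The depth allows no order between libraries for Il2rb and Socs2, and no comparison within libraries for these and Cish. No paired analysis was possible because the library numbers name no sample and no test between groups was made.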

Other observations

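Barcodes that failed the limits on genes or mitochondrial share held Il2ra at 12.7, 9.78, 200 and 189 CPM in libraries 5, 6, 7 and 8, Stat5a at 9.65, 8.48, 207 and 212, and Socs3 at 37.7, 38.1, 83.2 and 83.5. In libraries 7 and 8, Il2ra and Stat5a were thus higher in these 271 and 259 barcodes than in the passing cells, and Socs3 was lower. Every library held B cells, so no cell type that should lack these genes was there to give a background of free RNA, and its part was not tested. In Il2ra-positive against Il2ra-negative cells of libraries 7 and 8, the B cell genes had log2 ratios of 0.10 and 0.02 (Cd79a), -0.38 and -0.38 (Cd79b), -0.13 and -0.40 (Ms4a1), -0.28 and -0.33 (Pax5) and -0.11 and 0.00 (Cd22). In libraries 5 and 6, Cd79b was at 0.03 and 0.10.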
